A study of Zea mays with 10 samples.

Results

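Genes of jasmonate biosynthesis and jasmonate response were followed through the bulk RNA-seq of developing maize endosperm, the tissue of the seed that stores starch and protein. Members were the 77 identifiers that the study's supplementary hormone tables list under these 2 jasmonate categories. Of them, 76 were found among the 45953 genes of both count files, and the remaining identifier was not analysed here. The biosynthesis list held 51 of these genes and the response list held 32, with 7 genes in both. A gene symbol was given for 25 members, and the other 51 carry an identifier only.

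All plants were wild type B73, a maize inbred line, grown in a greenhouse per the labels. Replicated endosperm came from kernels 6 or 7 days after pollination (DAP), with 3 libraries of pooled endosperms per stage from independent ears. A second set of 4 libraries held 1 of undigested endosperm and 1 of protoplasts at each of 6 and 7 DAP. Protoplasts are cells freed from their walls, here by cutting the endosperm and incubating it in cellulase, macerozyme and pectolyase, so the protoplast libraries differ from the undigested ones by the whole preparation, cutting included. The study prepared protoplasts for single-cell sequencing and asked, among other things, where and when hormone genes act as endosperm cell types differentiate. Undigested tissue serves as the control of that preparation.

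Jasmonates are hormones made from membrane fatty acids, and plants make them within minutes of wounding as well as during flower and seed development. A lipoxygenase oxidises linolenic acid in the plastid, allene oxide synthase and allene oxide cyclase turn the product into 12-oxo-phytodienoic acid (OPDA), an OPDA reductase reduces it, and peroxisomal beta-oxidation shortens the side chain to jasmonic acid, which is then joined to isoleucine. Repressors with a ZIM domain hold back MYC transcription factors until the conjugated hormone triggers their breakdown. ZIM genes are themselves among the early genes that jasmonate switches on in Arabidopsis, so that the signal limits itself.

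Depth ranged from 15911047 to 24311056 counts for the 6 replicated libraries, and from 22234742 to 30203337 counts for the other 4. Aleurone markers were present in all libraries, with 3 genes summing to between 4520 and 9415 CPM. Levels are given throughout as CPM, the counts of a gene scaled to a common library size with TMM factors, and each count table was scaled on its own. Counts of 3 members were 0 in every library, and 10 members, these included, stayed under 10 counts in each library. No gene lengths of this annotation were used here, so levels were not compared between genes.

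The 76 genes took a small share of all counts, which differed between kinds of library. It was 0.169% to 0.175% in the 6 DAP replicates and 0.21% to 0.217% in the 7 DAP replicates. Undigested endosperm had 0.186% at 6 DAP and 0.223% at 7 DAP. Both protoplast libraries were far above, with 0.574% at 6 DAP and 0.581% at 7 DAP. In protoplasts, OPR1 and OPR2, which encode OPDA reductases annotated as cytoplasmic, made up 39.3% of the members' counts at 6 DAP and 32.7% at 7 DAP, against between 0.541% and 1.47% of them in the 8 other libraries. Whether these cytoplasmic reductases act in jasmonate synthesis was not tested. Without OPR1 and OPR2 the share in protoplasts was 0.349% and 0.391%, still above the 0.168% to 0.22% of the other libraries. In bulk tissue, more cells of a type and more RNA per cell cannot be told apart.

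**Figure D1:**
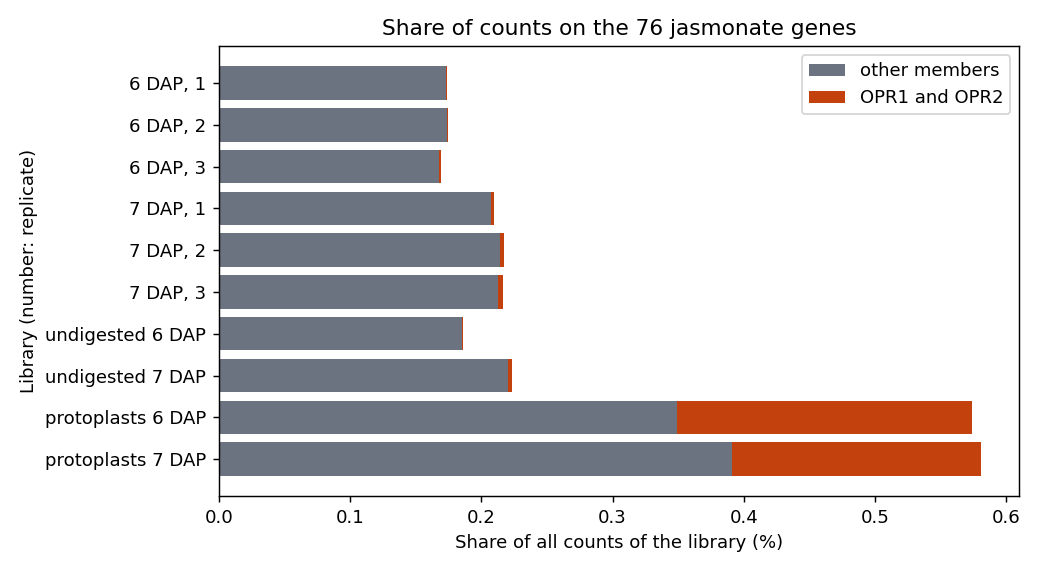
Bars give the share (%) of each library's counts that fell on the 76 jasmonate genes, split into OPR1 with OPR2 and the other members, with 1 bar per library and no error bars. Both protoplast libraries reach 0.574% and 0.581%, and every other library stays at or below 0.223%.

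The replicated libraries addressed how the pathway changed between 6 and 7 DAP. The allene oxide cyclase gene AOC1, the allene oxide synthase gene AOS2 and the OPDA reductase genes OPR5 and OPR2 were called higher at 7 DAP. So were the proteinase inhibitor gene SCI1, by a fold of 50.3, and the transcription factor gene EREB198. AOS1, also named as an allene oxide synthase gene, was higher but under the fold limit for a call. The auxin amido synthetase gene AAS5 fell, from 49.3 ± 1.68 to 12.9 ± 0.811 CPM (SD, n = 3). Of the 7 ZIM repressor genes, 0 were called. A gene was called when its p in edgeR's quasi-likelihood test, adjusted after Benjamini and Hochberg over all 21486 genes tested, was under 0.05 and its log2 fold change was over 1 in size. Of the 60 members with enough counts to be tested, 13 were called higher at 7 DAP (21.7%, against 7.4% of all genes tested) and 1 was called higher at 6 DAP (1.67%, against 2.19%). With no limit on the fold change, 31 members were higher at 7 DAP (51.7%, against 28.2% of all genes) and 11 were higher at 6 DAP (18.3%, against 28%). With the study's limit of 2 the numbers were 4 (6.67%, against 2.54%) and 0 (against 0.451%). For 41 of the 60 members the values at 6 DAP and those at 7 DAP lay fully apart (68.3%, against 61.8% of all genes). The median log2 fold change was 0.45 over 40 biosynthesis genes, 0.20 over 25 response genes and 0.02 over all genes.

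Lipoxygenases open the route. TS1 is the tassel seed lipoxygenase gene, whose loss lets pistils form in the tassel. It stood at 48.9, 50.5 and 47.7 CPM in the 6 DAP replicates and at 67.9, 74.0 and 66.7 CPM in the 7 DAP replicates. Its stages did not overlap, but its log2 fold change of 0.51 (standard error 0.05) was under the limit for a call. LOX4, listed with the response genes, encodes a lipoxygenase of the branch that oxidises fatty acids at the ninth carbon. It had 45.5, 46.6 and 45.9 CPM at 6 DAP and 43.5, 51.3 and 48.0 CPM at 7 DAP, and its stages overlapped (log2 fold change 0.05). LOX10, which makes leaf volatiles in maize, had between 5 and 13 counts in each replicated library and was too low to be tested there.

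Allene oxide synthase and cyclase followed. AOS1 had 17.3, 20.7 and 21.2 CPM at 6 DAP and 37.1, 36.1 and 34.4 CPM at 7 DAP. All 7 DAP libraries lay above all 6 DAP libraries, which is 0.87 on the log2 scale (standard error 0.07, adjusted p = 2.83e-09 in edgeR's quasi-likelihood test), just under the limit. AOS2 was near the floor, with 2, 3 and 1 counts at 6 DAP and 16, 21 and 16 counts at 7 DAP. Taken from the 6 and 53 summed counts, AOS2 was 8.49 times higher at 7 DAP, with an exact 95% counting interval of 3.65 to 24.2, and it was called (adjusted p = 5.47e-05 in the same test). AOC1, the allene oxide cyclase gene, had 39.0, 36.3 and 30.7 CPM at 6 DAP and 103, 102 and 99.3 CPM at 7 DAP. Its log2 fold change was 1.51 (standard error 0.06, adjusted p = 5.49e-15, edgeR), and the libraries of a stage differed from each other far less than the stages did.

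Of the 3 members with an OPDA reductase symbol, OPR5 rose most. Most members without a symbol had no role given, so further reductases among them were not identified. Its level was 1.41, 1.47 and 1.55 CPM at 6 DAP and 6.64, 7.15 and 5.67 CPM at 7 DAP (log2 fold change 2.14, standard error 0.18, adjusted p = 2.66e-09 in edgeR's quasi-likelihood test). OPR2 went from 8.11, 7.87 and 7.49 CPM to 22.8, 25.6 and 26.5 CPM, with a log2 fold change of 1.67 (standard error 0.09). OPR1 had 2.90, 1.98 and 3.09 CPM at 6 DAP and 4.05, 4.39 and 4.12 CPM at 7 DAP, a log2 fold change of 0.64. For all 3 genes the stages did not overlap, and OPR1 alone missed the fold limit. In RefSeq's annotation of another B73 assembly (Zm-B73-REFERENCE-NAM-5.0), the genes named opr1 and opr2 lie on chromosome 9 with 1 protein-coding gene between them. They are close relatives. Reads that map equally well to both were left out of the counts, and each value is uncertain to that extent.

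The genes of beta-oxidation moved little. umc2308, annotated as a peroxisomal 3-ketoacyl-CoA thiolase, had 67.1, 61.9 and 68.0 CPM at 6 DAP and 83.3, 91.9 and 93.8 CPM at 7 DAP (log2 fold change 0.45). For 1d027519, a gene for a ligase similar to 4-coumarate-CoA ligase, the log2 fold change was -0.19. For 1d053308, related to the multifunctional beta-oxidation protein AIM1 of Arabidopsis, it was -0.18. None of these 3 passed the fold limit, although the stages of each did not overlap. 1d044225, for which no role is given, had a log2 fold change of 0.07.

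AAS10 and AAS5 carry the name of auxin amido synthetases, a family whose jasmonate branch joins jasmonic acid to isoleucine. AAS10 went from 54.2, 54.4 and 53.2 CPM at 6 DAP to 86.7, 89.0 and 89.3 CPM at 7 DAP (log2 fold change 0.71, under the limit). AAS5 went the other way, from 48.2, 48.4 and 51.2 CPM to 12.0, 13.6 and 12.9 CPM, which is -1.93 on the log2 scale (standard error 0.07, adjusted p = 9.55e-16 in edgeR's quasi-likelihood test). It was the single member called higher at 6 DAP.

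**Figure D2:**
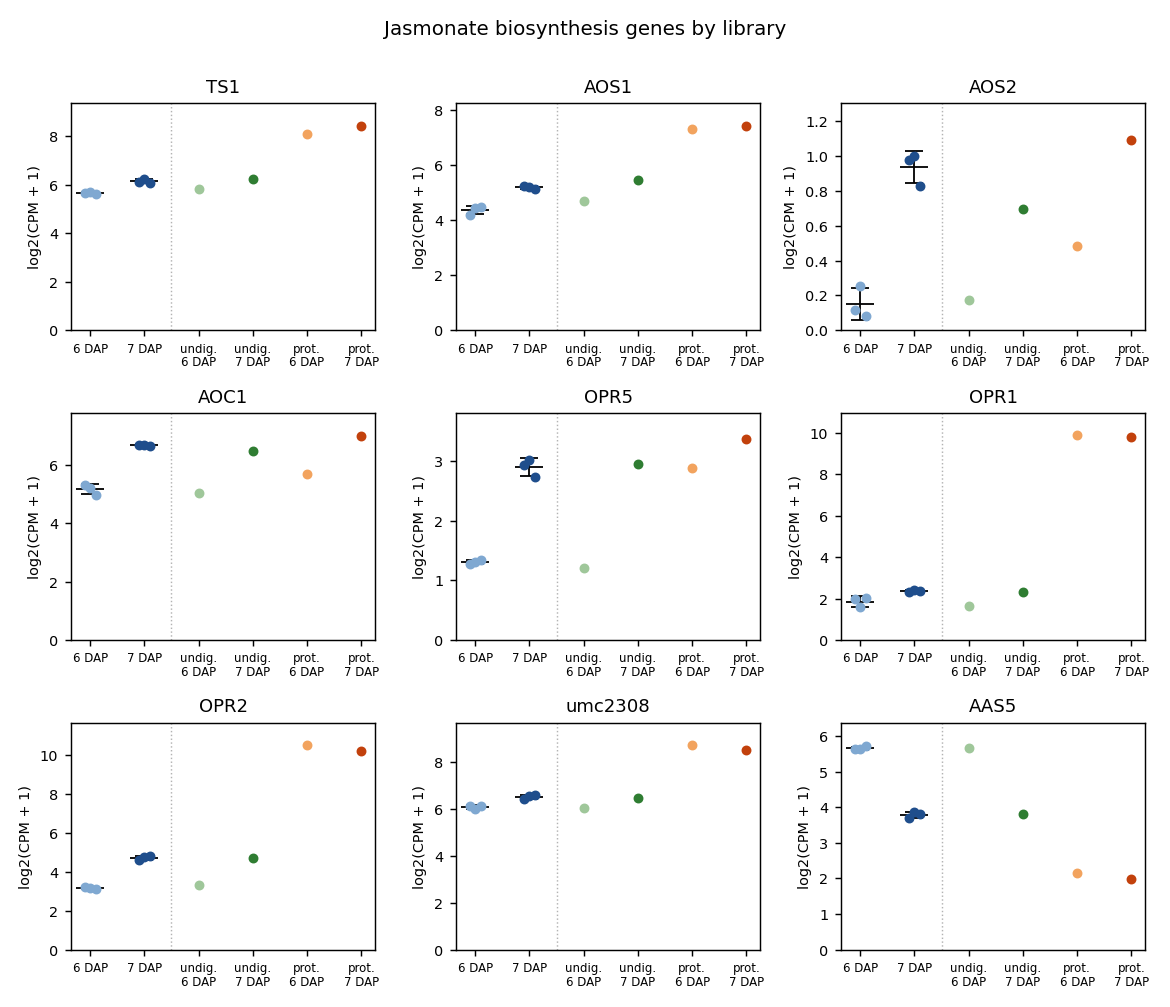
Each panel plots log2(CPM + 1) of 1 biosynthesis gene in the 10 libraries, with points for libraries, black bars for the mean and SD of 3 replicates, and a dotted line between the count tables, which were scaled separately. OPR1 and OPR2 stand highest in both protoplast libraries (938 and 878 CPM for OPR1), whereas AAS5 stands lowest there (3.46 and 2.93 CPM).

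The 7 ZIM genes had a median log2 fold change of 0.20 between stages. ZIM10 came nearest, with 3.67, 4.80 and 3.80 CPM at 6 DAP and 7.01, 7.34 and 7.66 CPM at 7 DAP (log2 fold change 0.86, standard error 0.14, adjusted p = 3.25e-05 in edgeR's quasi-likelihood test). Its stages did not overlap. In undigested endosperm, however, ZIM10 stood at 4.02 CPM at 6 DAP and 3.80 CPM at 7 DAP. ZIM16 had 80.5, 69.9 and 40.1 CPM at 6 DAP and 86.4, 79.2 and 88.3 CPM at 7 DAP. The 6 DAP library of replicate 3 was low and the stages overlapped, with a log2 fold change of 0.40. The log2 fold changes of ZIM34, ZIM4, ZIM18, ZIM28 and ZIM27 were 0.02, 0.03, 0.08, 0.20 and 0.28. The sign for ZIM4 and ZIM18 turned when single libraries were left out.

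The largest change between stages among the members was that of a response list gene outside the ZIM family. SCI1, a homologue of a subtilisin-chymotrypsin inhibitor, a class of protein that plants make against insect digestion, had 1.11, 2.24 and 1.49 CPM at 6 DAP and 77.1, 78.0 and 78.4 CPM at 7 DAP. The log2 fold change was 5.65 (standard error 0.10, adjusted p = 1.70e-20 in edgeR's quasi-likelihood test). EREB198, a transcription factor gene of the ethylene response element binding family, went from 5.72, 5.95 and 5.83 CPM to 17.2, 19.7 and 19.5 CPM (log2 fold change 1.70, standard error 0.10). The stages were well apart for both. ACS2, which encodes an enzyme of the ethylene precursor and is also on the study's ethylene biosynthesis list, had 22.5, 23.7 and 25.9 CPM at 6 DAP and 17.0, 20.2 and 20.5 CPM at 7 DAP (log2 fold change -0.31, under the limit).

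Of the 51 members without a symbol, 36 were tested and 7 were called, all higher at 7 DAP, where 7.4% of all genes were called. Zm00001d048268 had a log2 fold change of 2.19, from 0.0427, 0.384 and 0.297 CPM to 1.03, 0.858 and 1.16 CPM. At these low counts the value ranged from 1.56 without 6 DAP replicate 1 to 2.70 without 6 DAP replicate 2. Zm00001d011687 had a log2 fold change of 1.61 (1.24 to 2.02 with single libraries left out) and Zm00001d001960 one of 1.60, both with no replicate above 2 CPM. Zm00001d013185 had 1.75, 2.24 and 1.84 CPM at 6 DAP and 4.41, 3.96 and 4.36 CPM at 7 DAP (log2 fold change 1.14). Zm00001d034186 (1.21), Zm00001d037182 (1.08) and Zm00001d051877 (1.03) lay close to the limit on the log2 scale. The call of Zm00001d034186 was lost without 6 DAP replicate 2 (log2 fold change 0.82, adjusted p = 0.165, edgeR), without 7 DAP replicate 1 (1.09, adjusted p = 0.123) and, at a value as large, with DESeq2 (1.26, adjusted p = 0.143). Without 6 DAP replicate 1 the log2 fold change of Zm00001d037182 was 0.92, and that of Zm00001d051877 was 0.96, 0.95 and 0.98 without 6 DAP replicate 2, 6 DAP replicate 3 and 7 DAP replicate 2.

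The pair of undigested libraries gave the same stages in other samples, with 1 library each and no test. Of the 13 members called higher at 7 DAP, 13 were also higher at 7 DAP in undigested endosperm on the log2(CPM + 1) scale, with a median difference of 0.83. The same held for 98.2% of all genes called higher at 7 DAP. AAS5 was again lower at 7 DAP, at 49.9 CPM in undigested endosperm of 6 DAP and 13.1 CPM in that of 7 DAP. Without a fold limit, 30 of 31 members higher at 7 DAP kept the direction, with ZIM10 as the exception, against 98% of all such genes. Of the 11 members higher at 6 DAP, 10 kept it, with 1d053308 as the exception, against 90.2% of all such genes. Markers of cell types and of other tissue moved with stage as well. The 3 aleurone markers were higher at 7 DAP by 0.42 to 0.78 on the log2 scale, past the adjusted p and under the fold limit. The 3 markers of the embryo surrounding region rose by 2.16 to 2.58, the 2 of the endosperm adjacent to scutellum by 1.39 and 1.66, and of the 5 starchy endosperm markers ZP27, SH2 and DE18 rose by 2.01 to 2.43, with 0.35 for TAR1 and -0.80 for FL3. All 4 embryo markers (OLE1, OLE3, GLB1 and OBAP1A) rose, from a summed 65.2 to 71.9 CPM at 6 DAP to 543 to 570 CPM at 7 DAP, and the 3 transfer layer markers fell from a summed 486 to 531 CPM to 163 to 171 CPM. The part of these cell types and tissues in the members' changes was not tested. Of the other hormone lists in the same tables, response to ethylene had 2 of 5 tested genes called higher at 7 DAP. Response to abscisic acid (ABA) had 1 of 6, and ethylene biosynthesis had 0 higher and 2 lower of 16. Over all genes tested, 7.4% were called higher and 2.19% lower at 7 DAP.

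The second set of libraries addressed how the pathway differed after the preparation of protoplasts. Most of the ZIM repressor genes, the lipoxygenase genes TS1 and LOX4, AOS1, OPR1, OPR2, the thiolase gene umc2308 and the response genes ACS2 and EREB198 were raised in protoplasts relative to undigested endosperm at both stages, with folds between 3.87 for 1d027519 and 309 for OPR1 among the called genes with symbols. AAS5 was lower. By edgeR's quasi-likelihood test with stage as a covariate, 28 of 63 members tested were called higher in protoplasts (44.4%, against 18.4% of all 22799 genes) and 1 was called lower (1.59%, against 7.37%). With no limit on the fold change, 31 were higher (49.2%, against 23%) and 4 were lower (6.35%, against 16.3%). The median log2 fold change was 1.13 over the members and -0.03 over all genes. In the biosynthesis list 16 of 43 tested genes were called higher (37.2%), and in the response list 15 of 26 (57.7%), with medians of 0.58 and 1.99. With 1 library per stage and preparation, the stages stand in for replicates, 1 residual degree of freedom remains, and the spread between preparations of protoplasts was not measured.

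Each stage was also compared alone. Both protoplast libraries lay above both undigested ones for 38 of the 63 tested members (60.3%, against 36.5% of all genes) and below both for 10 (15.9%, against 35.1%). On the log2(CPM + 1) scale, 28 of the 63 tested members were over 1 higher in protoplasts at 6 DAP (44.4%, against 14.6% of all genes tested) and 27 at 7 DAP (42.9%, against 15.1%). The numbers that were over 1 lower were 1 at 6 DAP (1.59%, against 8.48%) and 5 at 7 DAP (7.94%, against 11.7%). Set against all 8 other libraries in CPM by library total, both protoplast libraries were highest for 30 of 63 members (47.6%, against 26% of all genes) and lowest for 9 (14.3%, against 34.9%). These last counts cross both count tables, so table and preparation cannot be told apart in them. Genes of other lists were called as well. In protoplasts 6 of 8 tested ethylene response genes, 5 of 7 ABA response genes and 7 of 17 ethylene biosynthesis genes were called higher. The share over all genes tested was 18.4%. The ubiquitin gene UBI1 went from 805 and 769 CPM in undigested endosperm to 3178 and 3032 CPM (log2 fold change 1.98), while the 5 starchy endosperm markers summed to 1722 to 1959 CPM against 5065 to 7022 CPM. Of these, 4 were called lower, and ZP27 did not pass (log2 fold change -4.27, adjusted p = 0.101, edgeR). The 3 embryo surrounding region markers (-1.73 to -1.15 on the log2 scale), both adjacent to scutellum markers (-2.36 and -2.32) and BETL9 of the transfer layer (-1.69) were called lower as well. Aleurone markers were at -0.56 for SBT1 (adjusted p = 0.0484, edgeR), -0.51 for VPP7 and -0.22 for AL9, and 0 of the 4 embryo markers passed. The part of a changed mix of cells in the members' rise was not tested.

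OPR1 and OPR2 stood out by size. OPR1 had 2.09 and 3.93 CPM in undigested endosperm at 6 and 7 DAP and 938 and 878 CPM in protoplasts. This was a change of 8.27 on the log2 scale (standard error 0.34, adjusted p = 0.000432 in edgeR's quasi-likelihood test). OPR2 had 8.84 and 25.0 CPM in undigested endosperm and 1441 and 1150 CPM in protoplasts, which gave 6.41 on the log2 scale (standard error 0.54). OPR5 differed from them, with 1.30 and 6.70 CPM undigested and 6.40 and 9.36 CPM in protoplasts. Its ranges overlapped across stages, and its log2 fold change of 1.30 (adjusted p = 0.093, same test) was not called, although it was at an adjusted p of 0.00854 when all 10 libraries entered the fit. In fits of 3 libraries with no stage term it ranged from 0.24 without undigested endosperm of 6 DAP to 2.59 without that of 7 DAP, where it was called (adjusted p = 0.0011, edgeR).

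The lipoxygenase and allene oxide genes rose less than OPR1 and OPR2. TS1 had 56.2 and 73.3 CPM undigested and 274 and 339 CPM in protoplasts (log2 fold change 2.25, standard error 0.13). AOS1 had 25.0 and 42.8 CPM undigested and 158 and 169 CPM in protoplasts (log2 fold change 2.32, standard error 0.21). LOX4, the response list gene of the ninth-carbon branch, went from 49.4 and 56.4 CPM to 202 and 242 CPM (log2 fold change 2.07). All 3 were higher in protoplasts at both stages. AOS1 rose by less at 7 DAP, with a difference of -0.66 between the stages. That difference came from a separate fit of all 10 libraries (adjusted p = 0.000763, edgeR), in which the replicated libraries gave the spread. AOC1, the allene oxide cyclase gene, had 31.8 and 89.4 CPM undigested and 50.5 and 126 CPM in protoplasts. Its log2 fold change was 0.58 (adjusted p = 0.0255, edgeR), under the limit, and its order by stage was kept in protoplasts. AOS2 (log2 fold change 1.13, adjusted p = 0.217) and LOX10 (1.43, adjusted p = 0.102) did not pass the same test, at no more than 47 counts in a library. With all 10 libraries in the fit LOX10 passed, at a log2 fold change of 1.47 (adjusted p = 0.03, edgeR).

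In beta-oxidation, umc2308 and 1d027519 rose and 1d053308 did not pass the test. umc2308 had 63.2 and 86.7 CPM undigested and 412 and 354 CPM in protoplasts (log2 fold change 2.37, standard error 0.21). 1d027519 had 61.5 and 55.9 CPM undigested and 213 and 243 CPM in protoplasts (log2 fold change 1.95). By contrast 1d053308 had 274 and 261 CPM undigested and 331 and 269 CPM in protoplasts, and its ranges overlapped. For 1d044225, with no role given, the log2 fold change was -0.22 (adjusted p = 0.223, edgeR).

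AAS5 was the single member called lower in protoplasts. It had 49.9 and 13.1 CPM undigested and 3.46 and 2.93 CPM in protoplasts, a change of -3.03 on the log2 scale (standard error 0.44, adjusted p = 0.00745 in edgeR's quasi-likelihood test). Both protoplast libraries lay below both undigested libraries. Fits of 3 libraries, which also drop the stage term, gave a log2 fold change between -3.97 and -2.03. Those without a protoplast library missed the call at values as large as the main one, -3.41 without that of 6 DAP (adjusted p = 0.0604, edgeR) and -3.18 without that of 7 DAP (adjusted p = 0.0805, edgeR). AAS10 had 55.3 and 86.4 CPM undigested and 44.4 and 69.9 CPM in protoplasts, and its ranges overlapped (log2 fold change -0.31).

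Of the 7 ZIM genes, 5 were called higher in protoplasts, where 18.4% of all genes were, and the median over the 7 was a log2 fold change of 3.06. ZIM10 had 4.02 and 3.80 CPM in undigested endosperm and 140 and 210 CPM in protoplasts (log2 fold change 5.45, standard error 0.23, adjusted p = 0.000454 in edgeR's quasi-likelihood test). ZIM18 had 0.545 and 1.08 CPM undigested and 13.7 and 22.2 CPM in protoplasts (log2 fold change 4.48). Neither gene overlapped between preparations. ZIM27, a homologue of TIFY 10B, had 6.12 and 7.48 CPM undigested and 81.1 and 116 CPM in protoplasts (log2 fold change 3.84). ZIM28 went from 1.55 and 1.65 CPM to 10.1 and 17.7 CPM (log2 fold change 3.06), and ZIM4 from 28.4 and 25.5 CPM to 79.6 and 139 CPM (log2 fold change 1.97). In all 7 ZIM genes the 7 DAP protoplast library was above that of 6 DAP, though by little for ZIM34.

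ZIM16 and ZIM34 were not called in protoplasts. ZIM16, whose identifier follows that of ZIM27, had 57.8 and 55.2 CPM undigested and 80.1 and 122 CPM in protoplasts. Its log2 fold change of 0.81 (adjusted p = 0.0313, edgeR) was under the limit. ZIM34 had 40.4 and 40.6 CPM undigested and 42.7 and 46.1 CPM in protoplasts, with a log2 fold change of 0.13 (adjusted p = 0.48, edgeR) whose sign turned when library totals replaced TMM factors.

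**Figure D3:**
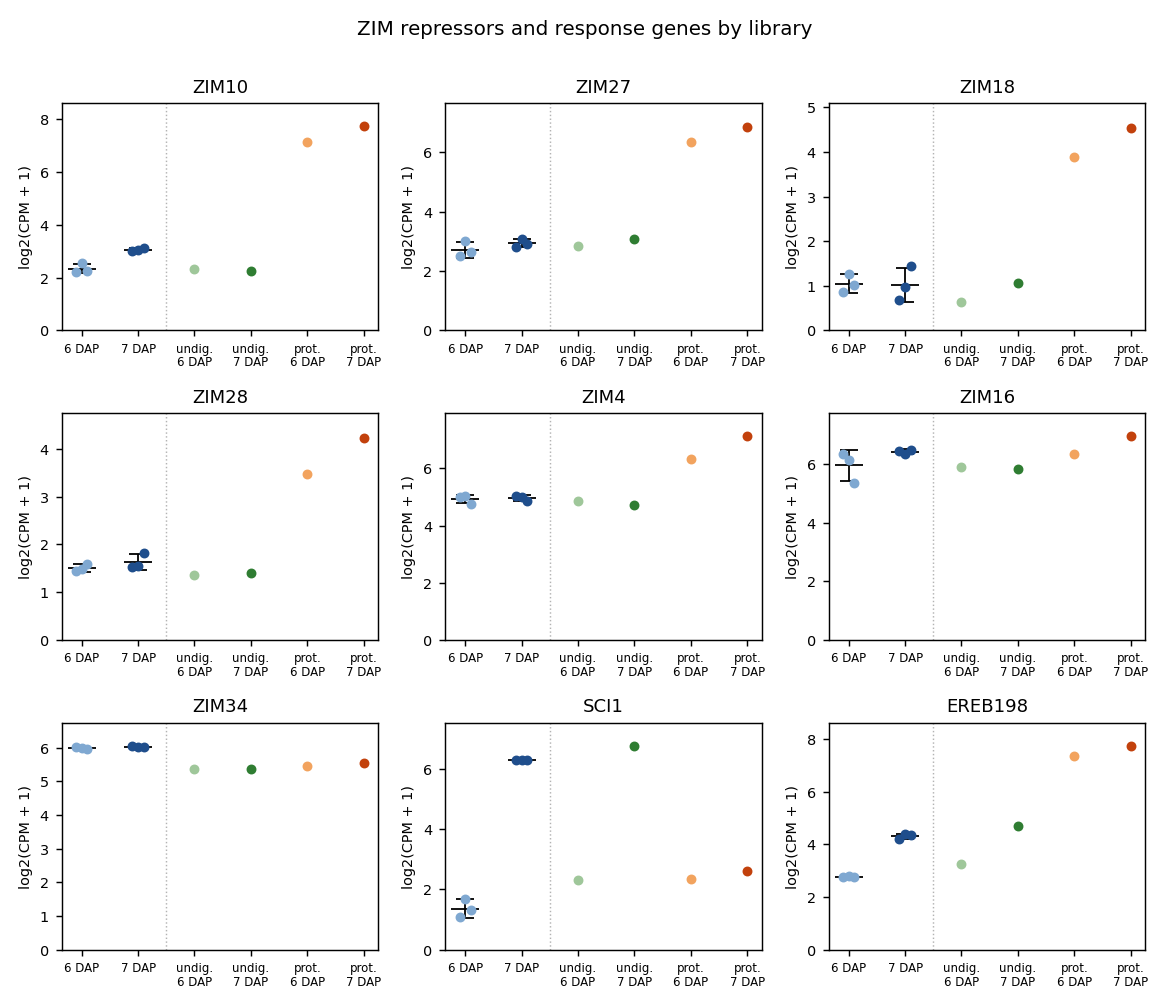
Each panel plots log2(CPM + 1) of 1 response gene in the 10 libraries, with points for libraries, black bars for the mean and SD of 3 replicates, and a dotted line between the separately scaled tables. ZIM10, ZIM27, ZIM18 and ZIM28 are highest in both protoplast libraries (140 and 210 CPM for ZIM10), and SCI1 is high at 7 DAP in every library but the protoplasts (5.16 CPM).

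Response genes outside the ZIM family split. ACS2 had 22.0 and 17.5 CPM undigested and 142 and 161 CPM in protoplasts (log2 fold change 2.95, standard error 0.18, adjusted p = 0.00083 in edgeR's quasi-likelihood test). EREB198 had 8.55 and 24.9 CPM undigested and 164 and 214 CPM in protoplasts (log2 fold change 3.66, standard error 0.32). Both rose at each stage. SCI1 had 4.02 and 108 CPM undigested and 4.05 and 5.16 CPM in protoplasts, so that the preparations were level at 6 DAP and far apart at 7 DAP. Its log2 fold change of -2.40 did not pass the test (adjusted p = 0.165, edgeR), with single-stage differences of -0.09 at 6 DAP and -4.35 at 7 DAP on the log2(CPM + 1) scale. With all 10 libraries in the fit the log2 fold change of SCI1 was -2.67, which passed (adjusted p = 0.0398, edgeR).

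Of the 38 tested members without a symbol, 14 were called higher in protoplasts and 0 lower in edgeR's test, against 18.4% and 7.37% of all genes. Zm00001d031449, a biosynthesis list gene, was nearly silent outside protoplasts, with 0.0419 and 0 CPM in undigested endosperm, 0 to 0.181 CPM in the replicated libraries and 22.8 and 34.6 CPM in protoplasts. From 1553 counts against 1 count it was 1396 times higher, with an exact 95% counting interval of 250 to 55165. Zm00001d011097 had 1.80 and 2.19 CPM undigested and 45.1 and 57.6 CPM in protoplasts (log2 fold change 4.68). Zm00001d037182 went from 1.76 and 3.68 CPM to 45.4 and 62.8 CPM (log2 fold change 4.36). The rise of these 3 was seen at both stages. Zm00001d013185 (3.22), Zm00001d039669 (3.19), Zm00001d043701 (3.14), Zm00001d033623 (3.06), Zm00001d034186 (2.89), Zm00001d052357 (2.77) and Zm00001d034184 (2.60) followed on the log2 scale. In the fits without a protoplast library and without the stage term, Zm00001d039669 missed the call at about the same log2 fold change, 3.10 without that of 6 DAP and 3.14 without that of 7 DAP (adjusted p = 0.109 and 0.117, edgeR). Zm00001d033623 precedes LOX4 in the identifier order, and it had 4.06 and 8.52 CPM undigested and 53.2 and 47.1 CPM in protoplasts.

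Other genes of wounding and the pathway that are not on the jasmonate lists gave 4 of 8 called higher in protoplasts and 0 lower, against 18.4% and 7.37% of all genes. Between stages 0 of them were called, but with no limit on the fold change 3 were higher at 7 DAP and 4 were higher at 6 DAP in edgeR's test, against 28.2% and 28% of all genes. The called genes were umc1497a and 1d014493 of a wound-responsive family (log2 fold changes 1.66 and 1.31), the proteinase inhibitor gene gpm191 (1.33) and the trypsin inhibitor gene 1d034673 (1.77). MYC7, a transcription factor of the basic helix-loop-helix family, had 32.7 and 47.9 CPM undigested and 45.0 and 63.8 CPM in protoplasts (log2 fold change 0.44, adjusted p = 0.0567, edgeR). The thiolase genes pco082145 and THL1 had log2 fold changes of 0.14 and -0.39, in contrast to 2.37 for umc2308.

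**Figure D4:**
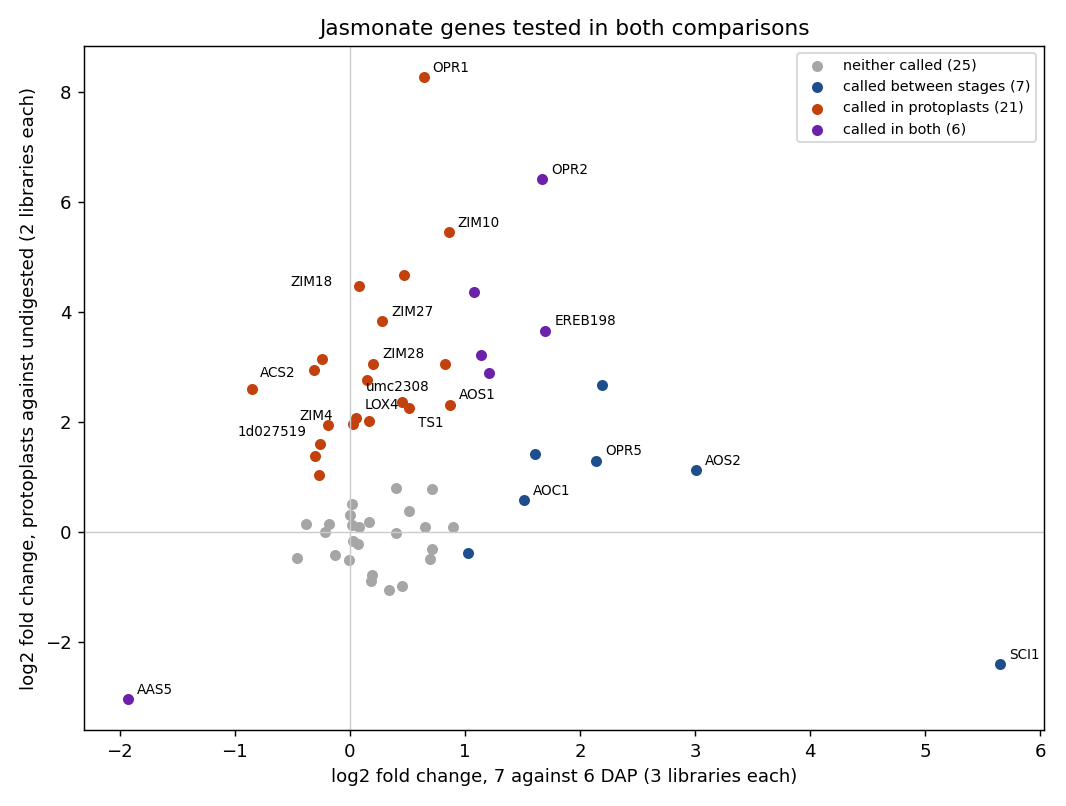
Points are the 59 members tested in both comparisons, with the log2 fold change of 7 against 6 DAP on the horizontal axis and that of protoplasts against undigested endosperm on the vertical axis, from separate libraries. Called in both were 6 genes, 21 were called in protoplasts alone, 7 between stages alone and 25 in neither, with OPR1 at the top (8.27) and SCI1 at the far right (5.65).

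The stage and the protoplast comparisons used separate libraries. Of the 14 members called between stages, 6 were also called in protoplasts in the same direction. OPR2, EREB198, Zm00001d013185, Zm00001d034186 and Zm00001d037182 were higher in both, and AAS5 was lower in both. Of the 13 called higher at 7 DAP, 5 were called higher in protoplasts, 7 were not called and 1 was not tested. That is near the share of all tested members called higher in protoplasts (28 of 63, 44.4%). The same overlap over all genes was not counted. AOC1, OPR5, AOS2 and SCI1 were called between stages and not in protoplasts. The ZIM genes, LOX4, TS1, AOS1, OPR1, umc2308 and ACS2 were called in protoplasts or not at all.

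Whether the change from 6 to 7 DAP differed in protoplasts was tested as the difference of the stage changes, protoplasts minus undigested, in a fit of all 10 libraries. The 4 unreplicated libraries were taken to vary like the replicated ones. The difference passed an adjusted p of 0.05 and a size of 1 on the log2 scale for 7 of 66 members tested (10.6%, against 5.9% of all 24368 genes). With no limit on the size it was 21 members (31.8%, against 19.2%). OPR2 was higher at 7 DAP in undigested endosperm (8.84 and 25.0 CPM) and lower at 7 DAP in protoplasts (1441 and 1150 CPM), a difference of -1.81 (standard error 0.11, adjusted p = 1.19e-10 in edgeR's quasi-likelihood test). For OPR5 the difference was -1.81 (standard error 0.37, adjusted p = 0.0013), for EREB198 -1.15 (standard error 0.14) and for SCI1 -4.39 (standard error 0.27). In each of these genes the stage change was smaller in protoplasts. AAS5, whose fall with stage was nearly absent in protoplasts, had a difference of 1.70 (standard error 0.24, adjusted p = 3.22e-05, edgeR). Zm00001d033623 had a difference of -1.24 (standard error 0.21). The value of Zm00001d048268 (-6.67) rests on 0 counts in undigested endosperm of 6 DAP, depends on how the fit treats 0 and gives no size. The comparison shares the undigested and protoplast libraries with the one before.

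ZIM4 was just under the limit, with a difference of 0.97 (standard error 0.15, adjusted p = 9.01e-05, edgeR), its level being 79.6 and 139 CPM in protoplasts of 6 and 7 DAP and 28.4 and 25.5 CPM in undigested endosperm. OPR1 was as near on the other side, with a difference of -0.99 (adjusted p = 0.0017). For ZIM10 the difference was 0.68 (adjusted p = 0.0281, edgeR). The median over the 7 ZIM genes was 0.68 and 0 of them passed the limit. AOC1 gave a difference of -0.16 (standard error 0.14), and the test found no difference between the preparations for it (adjusted p = 0.478, edgeR). Among cell type markers, all 4 embryo markers rose less with stage in protoplasts (differences between -5.12 and -1.27), and the 3 transfer layer markers fell less (1.18 to 1.44). Their part in the members' differences was not tested.

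**Figure D5:**
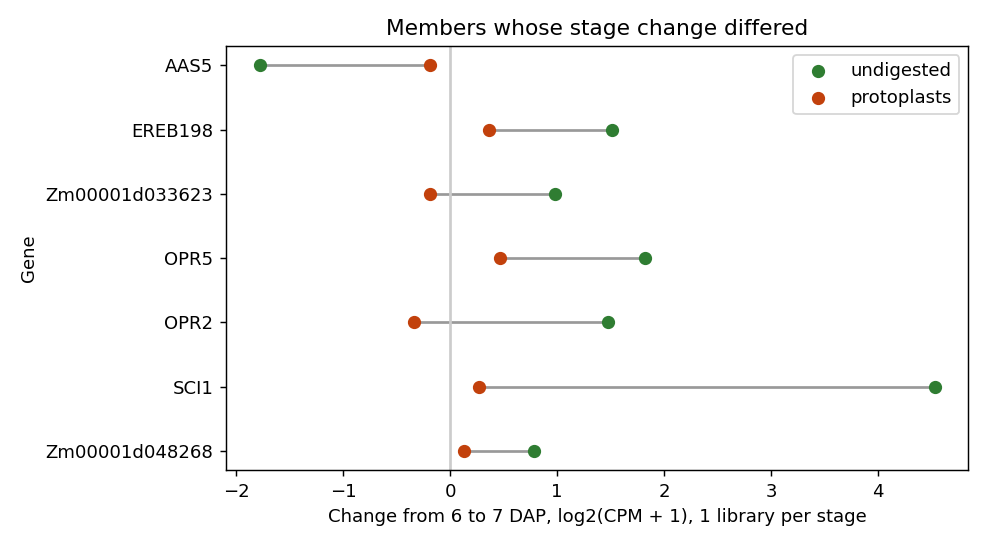
For the 7 members whose stage change differed, points give the change from 6 to 7 DAP on the log2(CPM + 1) scale in undigested endosperm and in protoplasts, with 1 library per stage and no error bars. The undigested change is the larger one in size in every case, from 4.53 for SCI1 to -1.78 for AAS5, and the protoplast changes lie between -0.34 and 0.47.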

How the data were processed

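Bulk RNA-seq of 10 libraries was used. The authors trimmed reads with Trimmomatic 0.39, aligned them with STAR to the B73 version 4 genome, counted uniquely mapped reads per gene with featureCounts 2.0.1 and deposited raw counts without normalization. The members, gene lists and tests were chosen with earlier results of these data known. Symbols and roles came from the study's supplementary tables, since 0 identifiers matched the RefSeq table of another assembly, and no gene sequences are shown for that reason.

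Counts were tested in R 4.3.3 with edgeR 4.0.16 (TMM factors, filterByExpr, quasi-likelihood F test, Benjamini-Hochberg adjustment over all genes tested). The study's own limit was a log2 fold change over 2, and here it was 1. Named with values were every member with a symbol and, of those without, the 10 with the largest called change in each direction of each comparison. Replicates of a stage came from independent ears, and each pair differed by more than sampling noise. Intervals on counts cover counting error only. Alternatives were DESeq2 1.42.0, other scalings and filters, other fold limits, a replicate block, single stages, and each library left out. The tests were run on simulated data with a log2 change of 2. Between stages 200 of 200 changed genes were recovered (21382 genes tested, 0 unchanged called). For protoplasts it was 200 of 200 (22786 tested, 1 unchanged called), and for the difference of stage changes 197 of 200 (23206 tested, 8 unchanged called). Changed genes had means over 2 CPM, and all genes of a comparison had the same fixed spread. No spread between protoplast preparations was simulated, so the check covers neither that spread nor genes at low counts.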

Additional observations from a re-analysis of the deposited data

Results flagged for a closer look

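The change from 6 to 7 DAP differed between protoplasts and undigested endosperm for 7 members, by edgeR's quasi-likelihood test of the difference itself at an adjusted p under 0.05 and a difference over 1 on the log2 scale. Given as protoplasts minus undigested, the difference was 1.70 for AAS5, -1.81 for OPR5, -1.81 for OPR2, -4.39 for SCI1, -1.15 for EREB198, -1.24 for Zm00001d033623 and -6.67 for Zm00001d048268, the last of which rests on a library with 0 counts. OPR2 and Zm00001d033623 changed in opposite directions, with changes on the log2(CPM + 1) scale of 1.48 (undigested) and -0.34 (protoplasts) for OPR2 and of 0.98 (undigested) and -0.19 (protoplasts) for Zm00001d033623. Each change compares single libraries, so the spread between protoplast preparations was not measured.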

How the results depend on the processing

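Calls moved mainly with the limit on the fold change. With the study's limit of 2, members higher at 7 DAP went from 13 to 4 and those higher at 6 DAP from 1 to 0, and with no limit they were 31 and 11, while members lower in protoplasts went from 1 to 4 and members whose stage change differed from 7 to 21. A minimum of 10 counts in every library left 55 members tested between stages and 8 higher at 7 DAP. Members lower in protoplasts were 3 with library totals, 3 with all 10 libraries in the fit and 5 at 7 DAP alone. With single libraries left out, members higher at 7 DAP ranged from 11 to 13 and those higher at 6 DAP from 1 to 2 (2 without 7 DAP replicate 2), and with the stage term dropped as well, those higher in protoplasts from 26 to 31 and those lower in protoplasts from 0 (without either protoplast library) to 3 (without undigested endosperm of 6 DAP). The number whose stage change differed was 7 without each replicated library, but these libraries enter that difference only through the spread, and it has no value without any of the other 4. DESeq2 called 12 members higher at 7 DAP, 1 higher at 6 DAP, 28 higher and 1 lower in protoplasts. Same-numbered replicates of the stages did not deviate together (correlations of 0.104, 0.0224 and -0.00446), and a fit with the replicate number as a block called 13 members higher at 7 DAP and 1 higher at 6 DAP.

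Signs turned only in values that were not called. Between stages, ZIM18 went from 0.08 to -0.02 with the replicate block and ranged from -0.40 to 0.33 with single replicates left out, and ZIM4 went from 0.03 to between -0.06 and 0.09. With library totals the median over all genes moved by 0.12 between stages and by -0.17 in protoplasts. With them 1d053308 (-0.01) and ZIM34 (-0.04) turned in protoplasts, and AAS10 (-0.08) and LOX4 (-0.02) turned in the difference of stage changes. Without the stage term and 1 library, AAS10 gave -0.66 to 0.04 in protoplasts (0.01 without the 6 DAP protoplasts). In the same fits AOC1 ranged from -0.25 without the 7 DAP protoplasts to 1.47 without undigested endosperm of 7 DAP. SCI1 ranged from -4.55 without undigested endosperm of 6 DAP to 0.19 without that of 7 DAP. The 1.47 of AOC1 and the -4.55 of SCI1 were past the fold limit in size, so for these genes sign and size depended on the library left out. The causes were not tested. Low counts kept 16 members out of the test between stages and 13 out of that of protoplasts, and for these low depth and absent expression cannot be told apart.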
